A study of Mus musculus with 14 samples.

Results

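Plac8, Ly6a, Ly6e, Ly6c2, S100a8, S100a9 and Ccr2 are 7 genes of blood monocytes and of monocyte and granulocyte precursors, among the 21444 genes counted in mouse bone marrow-derived macrophages. They were named as genes rising in the Elavl1 knockout, so they were chosen by their KO to WT change in these mRNA counts, and those values are given as a description with no test. All 7 passed the filter on low counts, which 14019 genes passed. The measured values did not bear out the name for S100a8, which averaged lower in the knockout, and none of the 7 passed the test across all genes. The comparison among replicate numbers and the AGO2 binding tables were not used to choose them.

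The series asks how ELAVL1 (HuR), a protein that binds uridine-rich elements of mRNA, bears on miRNA binding in macrophages. Marrow flushed from mouse leg bones was cultured in complete DMEM with 20% L929 medium, a source of the macrophage growth factor CSF1. The growth protocol gives 6 days, whereas the series text gives 7 days, which could not be settled. Poly(A) mRNA was sequenced in 4 wild type (WT) and 4 knockout (KO) libraries, small RNA in WT 1 and 2 and KO 3 and 4, and AGO2-bound RNA by PAR-CLIP in 1 library per genotype.

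All mice were C57BL/6 and all carried the floxed allele, so the WT group was ELAVL1f/f without Cre and the KO group was ELAVL1f/f, LysM-Cre. LysM-Cre is a recombinase placed in Lyz2, a gene of the myeloid lineage, so deletion depends on how early and how fully each cell turns Lyz2 on. Ages and the sex of the mice were not given in the sources used here. The labels do not tie a replicate number to an animal, so the spread between libraries may be in part technical, although the series text calls the repeats biologic.

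Circulating classical monocytes leave the marrow by CCR2, the receptor for CCL2, and carry much LY6C on their surface. S100A8 and S100A9 form calprotectin, a calcium- and metal-binding complex that fills the cytoplasm of neutrophils and is also made by monocytes. Both sets of genes are known to fall as monocytes become macrophages in CSF1. PLAC8, LY6A and LY6E are less specific: PLAC8 is found in myeloid precursors and monocytes, LY6A (SCA-1) marks blood stem cells and is induced by interferons, and LY6E is a broadly made interferon-induced surface protein.

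Each mRNA library held between 8160789 (KO 1) and 25030262 (KO 4) counts. Elavl1 itself stood at 63.5 ± 2.00 CPM (counts scaled to a library of 1000000, SD, n = 4) in WT and 69.5 ± 6.13 in KO. A count over the whole gene does not isolate the floxed part, so it does not check the deletion. Lyz2, where the Cre sits, stood at 12428 ± 2555 CPM in WT and 5067 ± 1004 in KO and was lower in all 4 libraries labelled KO. The defining macrophage genes were high in both groups: Adgre1 (F4/80) averaged 3421 CPM in WT and 3183 in KO, and Csf1r averaged 2412 and 2390. The Y-linked gene Kdm5d was between 19.8 and 25.7 CPM in numbers 1 and 2 of both genotypes and was listed at 0 in numbers 3 and 4. Numbers 1 and 2 thus differed from 3 and 4 in the sex of their source, and with it in anything else that went with the number. These cannot be told apart, and the split lies within each genotype, not between them.

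Per unit of gene length, Ly6e was by far the most abundant member. Its deposited RPKM (reads per kilobase of gene, scaled to library size) averaged 322 over the 8 libraries, which placed it at 147 of 21444 genes. Ly6a followed at 41.7 RPKM, then S100a8 at 8.04, S100a9 at 4.56, Ly6c2 at 3.95, Ccr2 at 3.32 and Plac8 at 2.39. Only Ly6e was set apart from its neighbour in this order, with all libraries at 173 RPKM or more against at most 127 for Ly6a. The library ranges of the other neighbours overlapped: Ly6a ran from 3.99 RPKM, S100a8 from 2.18 to 13.2 and Plac8, the last, from 0.598 to 5.28. Lyz2, a gene of mature myeloid cells, averaged 5973 RPKM on the same scale.

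Knockout libraries averaged higher than wild type for 6 of the 7 members and lower for S100a8. The fitted log2 fold changes (KO minus WT) were 1.81 for Ly6a, 1.74 for Plac8, 1.35 for Ly6c2, 0.83 for Ccr2, 0.47 for S100a9, 0.43 for Ly6e and -0.27 for S100a8. Over all 14019 tested genes 6949 were higher in KO and 7070 lower, with a median at 0.00. No gene of the whole table was called at an adjusted p under 0.05 by edgeR's quasi-likelihood test with genotype alone (0% called), so 0 of the 7 members were. At an unadjusted p under 0.05 there were 81 genes in this fit, and 1321 when the replicate number was added as a block. DESeq2 with genotype alone called 3 genes, none of them a member. With the replicate number as a block, 5 genes (0.0357%) were called, and again 0 members. The blocked fold changes were 1.8 (standard error, SE, 0.31) for Plac8, 1.63 (SE 0.4) for Ly6a and 1.35 (SE 0.33) for Ly6c2. They were 0.81 (SE 0.13) for Ccr2, 0.53 (SE 0.16) for Ly6e, 0.51 (SE 0.2) for S100a9 and -0.27 (SE 0.22) for S100a8. Each SE was smaller than without the block, the fit whose SEs are given below unless stated. Nothing is read from these values, because the same contrast chose the members. Numbers 3 and 4 fitted alone gave 14 genes (0.0975%), with Ly6a among them, from which nothing is read because this contrast chose the members.

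**Figure D1:**
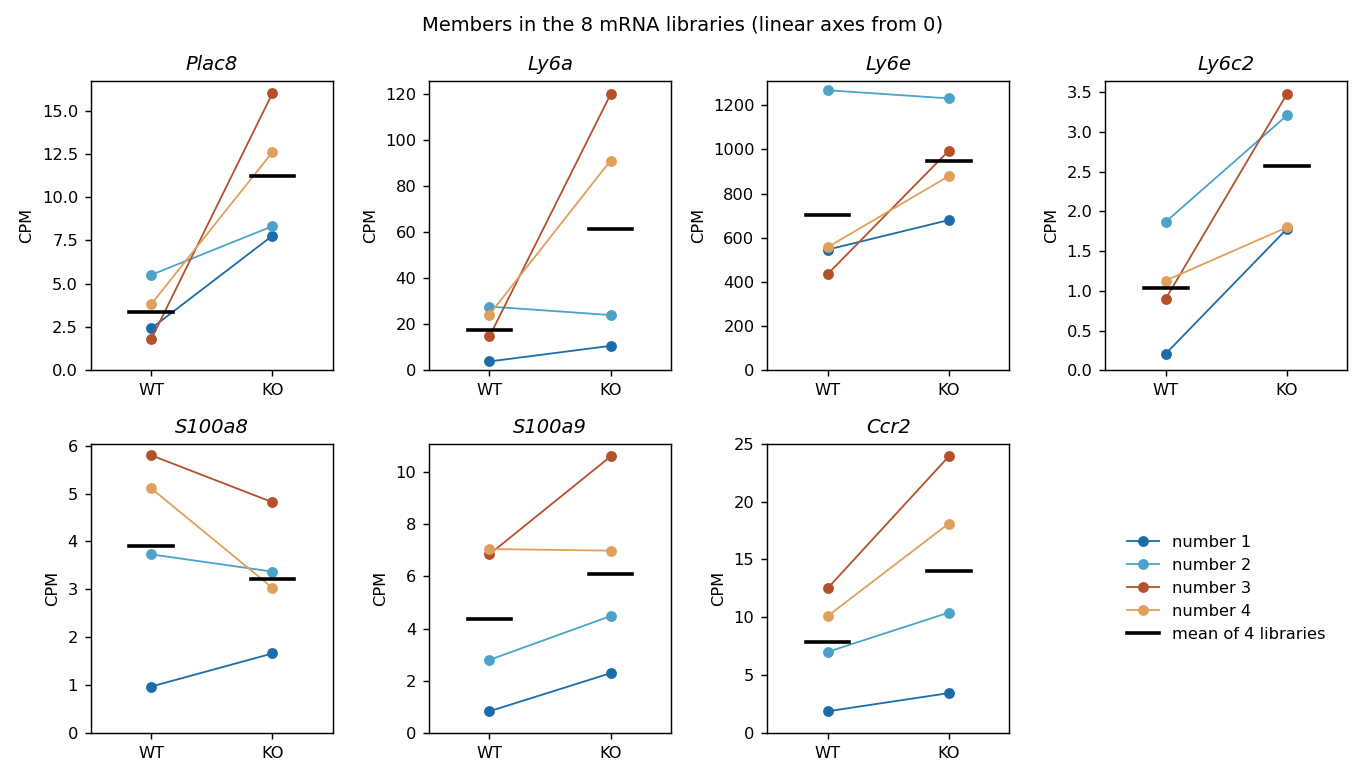
CPM of each member in WT and KO libraries, 1 panel per gene with a linear axis from 0. Lines join the libraries with the same replicate number and black bars are means of 4 libraries. Only Plac8 has all KO points (7.77 to 16) above all WT points (1.8 to 5.51).

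Plac8 (ENSMUSG00000029322) encodes a small cysteine-rich protein. Its level was 2.42, 5.51, 1.8 and 3.82 CPM in WT 1 to 4, a mean of 3.39 ± 1.65 (SD, n = 4). In KO 1 to 4 it was 7.77, 8.32, 16 and 12.6 CPM, a mean of 11.2 ± 3.86. Every KO library was above every WT library, which held for no other member and for 49 genes (0.35%) of the table. The means stood 3.29-fold apart, and the fitted log2 fold change was 1.74 (SE 0.39). KO exceeded WT within each number, by 1.51-fold in number 2 and by 8.86-fold in number 3. The nearest genes on chromosome 5 did not share the difference: Cops4 averaged 37.5 CPM in both genotypes and Coq2 28 in WT and 30.8 in KO. Plac8 counts ran from 35 to 371 reads per library.

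Ly6a (SCA-1) covered the widest range of the members, 31.4-fold between its highest and lowest library. It was 3.81, 27.7, 14.7 and 24.2 CPM in WT 1 to 4, with a mean of 17.6 ± 10.7. It was 10.6, 24, 120 and 91.2 CPM in KO 1 to 4, with a mean of 61.3 ± 52.4. The groups overlapped, because KO 1 and KO 2 lay within the WT range while KO 3 and KO 4 lay far above it. The fitted log2 fold change was 1.81 (SE 0.79) over all libraries, 0.16 in numbers 1 and 2 alone and 2.43 in numbers 3 and 4 alone. The difference between these sets was not tested.

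Ly6e showed the same split by number at a much higher level. In WT 1 to 4 it was 546, 1268, 435 and 557 CPM and in KO 1 to 4 it was 680, 1231, 994 and 879 CPM. WT 2 stood apart from the other WT libraries, and WT 2 and KO 2 were the 2 highest of all 8. The means were 701 ± 382 and 946 ± 230, and the fitted log2 fold change was 0.43 (SE 0.35). Without WT 2 the fold change became 0.88. It was 0.07 in numbers 1 and 2 alone and 0.91 in numbers 3 and 4 alone.

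Ly6c2 encodes the LY6C form that marks classical monocytes, and it was close to the limit of counting. It was 0.208, 1.87, 0.901 and 1.13 CPM in WT 1 to 4, from 3, 20, 23 and 28 reads. It was 1.78, 3.21, 3.48 and 1.8 CPM in KO 1 to 4, from 14, 61, 81 and 47 reads. KO was above WT within each number, but KO 1 and KO 4 were below WT 2, so the groups overlapped. The fitted log2 fold change was 1.35 (SE 0.54).

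Ly6e, Ly6i, Ly6a, Ly6c1 and Ly6c2 lie side by side on chromosome 15, and several are near-identical copies. How the authors' counting treated reads that map more than once is not given in the sources used here, so the split of reads between Ly6a, Ly6c1, Ly6c2 and Ly6i is uncertain. Ly6i averaged 0.407 CPM in WT and 1.69 in KO, and Ly6c1 averaged 0.863 and 1.87. Among the other members of the LY6 family, of which 6 were tested, 4 were higher in KO, 2 lower, and 0 were called with or without the block. Ly6g, the neutrophil member of the cluster, averaged 0 CPM in WT and 0.0132 in KO.

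Ccr2 had the most even change among the numbers. It was 1.87, 7.0, 12.5 and 10.1 CPM in WT 1 to 4 and 3.44, 10.4, 23.9 and 18.1 CPM in KO 1 to 4. The log2 difference within numbers 1 to 4 was 0.88, 0.57, 0.93 and 0.83. The groups overlapped widely all the same, since number 1 was low and numbers 3 and 4 were high in both genotypes. The means were 7.89 ± 4.61 and 14 ± 8.91. The fitted log2 fold change was 0.83 (SE 0.63) without the block and 0.81 (SE 0.13) with it. Of the genes near it on chromosome 9, Ccr3 averaged 6.76 CPM in WT and 4.52 in KO, and Ccr1 averaged 6.53 and 5.64. Of 13 tested chemokine ligands of CCR2 and related receptors, 6 were higher in KO and 7 lower, with a median log2 fold change of -0.04 and 0 called.

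The calprotectin pair did not move together between the genotypes. S100a8 was 0.969, 3.73, 5.8 and 5.11 CPM in WT 1 to 4 and 1.66, 3.37, 4.82 and 3.03 CPM in KO 1 to 4. KO was above WT in number 1 and below it in numbers 2, 3 and 4, so its fitted log2 fold change was -0.27 (SE 0.51). S100a9 was 0.83, 2.8, 6.85 and 7.05 CPM in WT 1 to 4 and 2.29, 4.48, 10.6 and 6.99 CPM in KO 1 to 4. KO was above WT in numbers 1, 2 and 3 and level with it in number 4, and the fitted log2 fold change was 0.47 (SE 0.64). Leaving out KO 3 took the S100a9 fold change to 0.06 and leaving out WT 1 took it to 0.14. Across the 8 libraries the pair still followed each other, with a Pearson r of 0.89 on log2 CPM, and both were lowest in number 1 in each genotype. Of 13 other tested S100 genes and receptors of S100A8 and S100A9, 2 were higher in KO and 11 lower, with a median of -0.18 and 0 called. S100a6, the nearest tested gene beside the pair on chromosome 3, averaged 108 CPM in WT and 103 in KO.

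KO exceeded WT within all 4 numbers for 3 members, Plac8, Ly6c2 and Ccr2, against 1334 genes (9.52%) of the table. This count restates the contrast that chose the members, and nothing is read from it. Number 2 gave the smallest change, or one below 0, for Plac8, Ly6a, Ly6e and Ccr2. Number 3 gave the highest change for Plac8, Ly6a, Ly6e and Ccr2, and number 1 the highest for Ly6c2, S100a8 and S100a9. KO 3 was the highest library of all for Plac8, Ly6a, Ly6c2, S100a9 and Ccr2. WT 1 was the lowest for Ly6a, Ly6c2, S100a8, S100a9 and Ccr2.

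**Figure D2:**
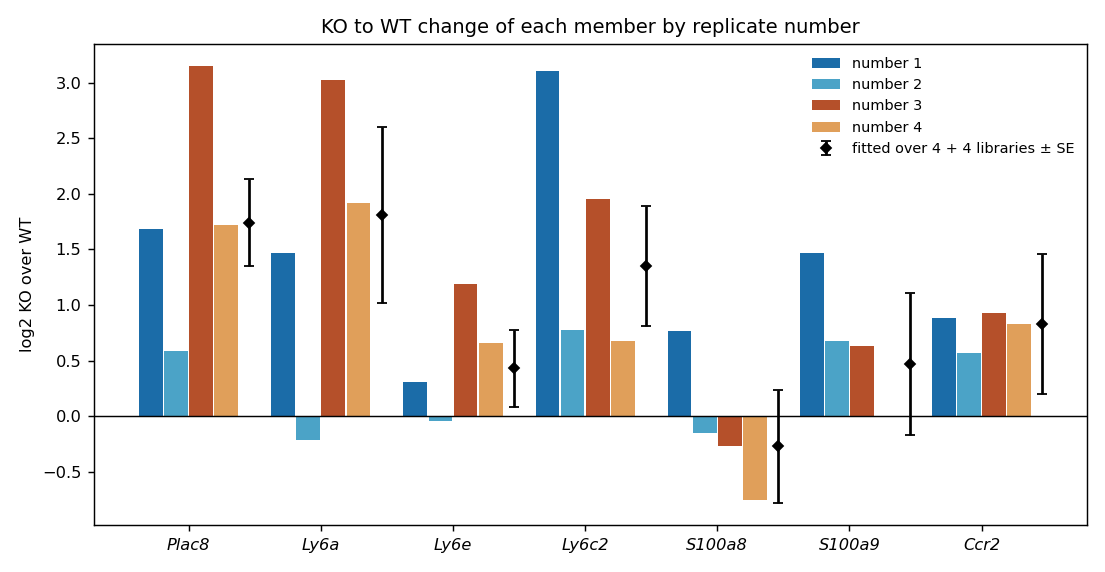
Log2 ratio of KO to WT CPM for each member within replicate numbers 1 to 4 (bars), and the fold change fitted over 4 WT and 4 KO libraries with its standard error (diamonds). Plac8, Ly6c2 and Ccr2 are above 0 in all 4 numbers, and S100a8 is below 0 in numbers 2, 3 and 4.

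The replicate number was tested separately, with genotype in the fit, as a comparison that played no part in choosing the members. Over all tested genes 9170 (65.4%) differed among the 4 numbers at an adjusted p under 0.05 in edgeR's quasi-likelihood F test. Of the members 5 of 7 did, a share near that of all genes. The Benjamini-Hochberg adjusted p was 8.47e-06 for Ccr2, 0.000218 for S100a9, 0.00253 for S100a8, 0.00389 for Ly6e and 0.0055 for Ly6a. It was 0.0909 for Ly6c2 and 0.532 for Plac8.

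Ccr2, S100a8, S100a9 and Ly6a were lowest in number 1 in both genotypes, and Ccr2 and S100a9 were higher in numbers 3 and 4 than in 1 and 2. Ccr2 averaged 5.68 CPM over the 4 libraries of numbers 1 and 2 and 16.2 CPM over the 4 of numbers 3 and 4. S100a9 averaged 2.60 and 7.88 CPM and S100a8 2.43 and 4.69. Ly6e averaged 931 CPM in numbers 1 and 2 and 716 in numbers 3 and 4, a difference held by WT alone: the log2 difference was -0.76 in WT, where WT 2 stood highest, and 0.03 in KO. Leaving out WT 1 took the number of members that differed from 5 to 3, with an adjusted p of 0.0617 for Ly6a and 0.0562 for S100a8. Ly6a was also no longer called without KO 1 (0.108) and Ly6e without WT 2 (0.11). Plac8 passed without WT 3 (0.0316) or without KO 3 (0.0268), and Ly6c2 passed without WT 3 (0.0442) or with no filter on low counts (0.0112).

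Genes of all the listed cell types differed among the numbers, those of macrophages (26 of 29) and monocytes (19 of 23) included. So did 9170 (65.4%) of all 14019 genes tested, so most genes of any list would be called. Of 17 tested stromal and fibroblast genes, 16 differed among the numbers and their median stood 3.30 higher on the log2 scale in numbers 3 and 4. Of 11 dendritic cell genes all 11 differed, with a median 2.69 higher, and Cd74 was 61.0 and 149 CPM in WT 1 and 2 but 774 and 895 in WT 3 and 4. In the comparison of genotypes the stromal list had 16 of 17 genes higher in KO and a median log2 fold change of 0.93, with 0 called, although Col1a1 was lower in KO in numbers 1 and 2 (1.11 and 1.31 CPM in WT, 0.51 and 0.579 in KO) and higher in 3 and 4 (0.979 and 6.96, 13.2 and 18.9). The part of these cells in the levels of the members was not tested. In bulk RNA, more cells of a type cannot be told apart from more RNA per cell.

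Correlations across the 8 libraries describe how far the members moved as 1 set, with genotype, number and depth shared by all points. Ccr2 and S100a9 had a Pearson r of 0.96, Ly6a and Ccr2 0.91, and S100a8 and Ccr2 0.85. Plac8 went with Ly6c2 at 0.80 and with Ly6a at 0.77, but with S100a8 at 0.10. Ly6e was close to unrelated to S100a8 (0.11) and S100a9 (0.13). The genes most like each member over the same 8 libraries were Psme1 for Plac8 (r 0.954), Vps53 for Ly6a (0.987), Ndufaf3 for Ly6e (0.981) and Ago4 for Ly6c2 (0.96). They were Dtx4 for S100a8 (0.996), Fam83f for S100a9 (0.992) and Tmem154 for Ccr2 (0.996). The next 2 in each list were Gabbr1 and C4b, Man2b1 and Tmem140, Arhgap9 and Smad7, Acad12 and Recql5, Plaur and Cox6c, Nek6 and Rragd, and Pianp and A230083G16Rik, in the order of the members above. No member was among the 3 genes most like another member.

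Other genes of monocytes did not share a direction. Of 23 tested, 14 were higher in KO and 9 lower, with a median log2 fold change of 0.08 and 0 called with or without the block. Itgal and Irf8 were the most abundant, Itgal at 645 ± 524 CPM in WT and 660 ± 465 in KO and Irf8 at 255 ± 47.6 and 272 ± 24.2. Ly6c1 was the highest in fold change (1.14) and Cd177, a neutrophil surface protein held by both lists, the lowest (-1.18). Cx3cr1, the receptor of patrolling monocytes, averaged 9.54 CPM in WT and 8.40 in KO. Ms4a4c averaged 3.58 and 7.54 CPM and Fn1 13.8 and 26.5, while F13a1 averaged 55.4 and 40.4 and Mgst1 34.4 and 27.4. Ms4a4c was 2.91, 2.33, 4.11 and 4.95 CPM in WT 1 to 4 and 2.8, 3.0, 12.1 and 12.3 in KO 1 to 4. Fn1 was 8.72, 1.77, 11.9 and 32.6 CPM in WT 1 to 4 and 2.04, 3.0, 49.1 and 51.9 in KO 1 to 4. Both were thus lower in KO in number 1.

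Of 26 genes of granulocyte precursors and neutrophils, 14 had enough reads to be tested, and 10 of these were higher in KO and 4 lower, with a median of 0.39. With the block 1 of them was called, Mmp9 (gelatinase B), which also belongs to macrophages. It was 58.5, 19.4, 8.66 and 7.65 CPM in WT 1 to 4 and 118, 28.8, 19.3 and 15.2 CPM in KO 1 to 4, with an adjusted p of 0.0152 in edgeR. Of the primary granule genes, Mpo (myeloperoxidase) was the most abundant. It was 3.46, 16, 4.23 and 4.95 CPM in WT 1 to 4 and 10.7, 30.6, 10.6 and 4.15 in KO 1 to 4. Mpo and Elane (neutrophil elastase), Prtn3 (proteinase 3) and Ctsg (cathepsin G) were highest in KO 2 and, within WT, in WT 2. They were lower in KO 4 than in WT 4. Plac8 was also highest in WT 2 within WT, but within KO it was highest in KO 3, and Ccr2 was highest in WT 3 and KO 3. Camp, a secondary granule gene, averaged 0.145 CPM in WT and 0.105 in KO and had too few reads to be tested. Ltf, Ngp and Lcn2, tested genes of the same granules, averaged 2.04, 4.25 and 3.81 CPM in WT. In KO they averaged 2.76, 6.13 and 4.24 CPM, and none of them was called. Csf3r, the receptor for the granulocyte growth factor G-CSF, was between 73.3 and 99.8 CPM in WT and between 109 and 115 in KO.

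Of 19 stem and progenitor genes 10 were tested, 7 higher in KO and 3 lower, with a median of 0.17 and 0 called. The most abundant were Cd48, at 89.8 ± 39.1 CPM in WT and 83.9 ± 34.5 in KO, and Procr, which had the lowest fold change (-0.88), at 59.2 ± 38.7 and 32.1 ± 14.9. Cd34, the highest in fold change (0.80), averaged 0.443 CPM in WT and 0.793 in KO, and Kit, the stem cell factor receptor, averaged 3.27 and 3.53. Of the 29 macrophage identity genes 19 were higher in KO and 10 lower, with a median of 0.07 and 0 called. Because Ly6a and Ly6e respond to interferon, 36 genes of the type I interferon response were set beside them: 33 were higher in KO and 3 lower, with a median of 0.19 and 0 called. That median was -0.01 in numbers 1 and 2 alone and 0.41 in numbers 3 and 4 alone. The same 2 medians were 0.05 and 1.11 for stromal genes, -0.01 and 0.38 for endothelial genes and -0.02 and 0.27 for the chemokine list. They ran the other way for granulocyte precursor and neutrophil genes (0.51 and 0.08) and for the Ly6 family (0.48 and 0.39). Mast cell and basophil genes (1.44 and 0.47) and erythroid and megakaryocyte genes (0.34 and 0.11) were also lower in numbers 3 and 4. For monocyte genes the medians were -0.07 and 0.20. The difference between the number sets was not tested for any list. Ifitm3 was 609 ± 121 CPM in WT and 704 ± 153 in KO, and Oasl1, the highest in fold change, was 23.5 ± 12.7 and 38.6 ± 11.4.

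**Figure D3:**
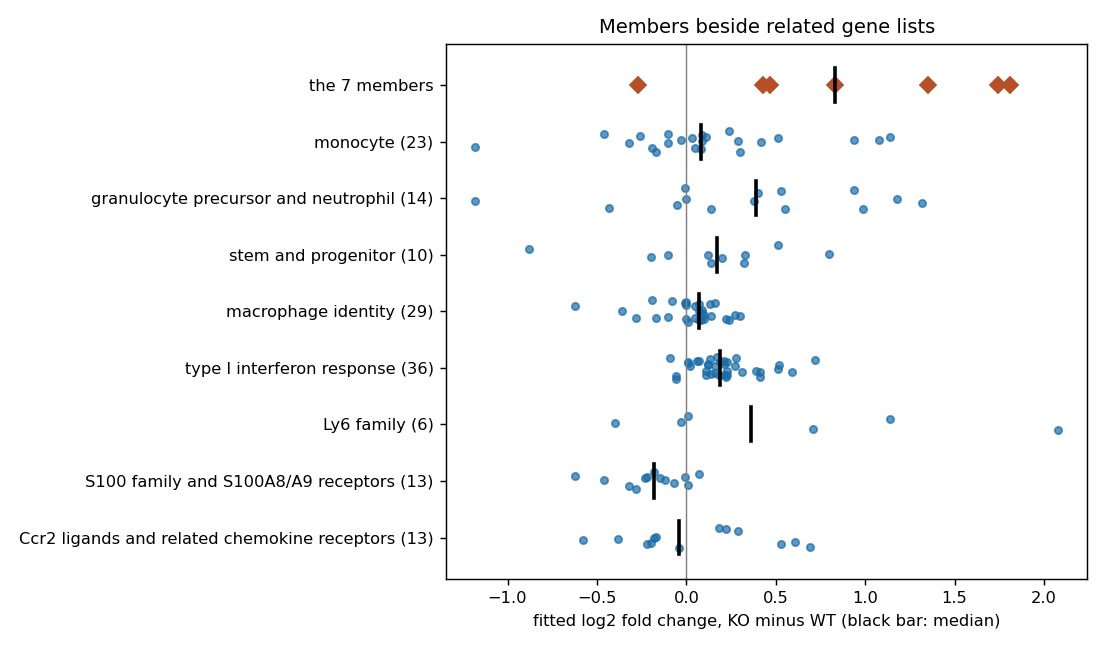
Fitted log2 fold change (KO minus WT) of the 7 members (diamonds) and of the tested genes of 8 related lists that leave the members out (points, number in brackets). Black bars are medians, 0.08 for monocyte genes and 0.39 for granulocyte precursor and neutrophil genes.

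The remaining lists mark cells that could be present in such a culture. Of T, B and NK cell genes 5 of 18 listed were tested, and 4 were higher in KO (median 0.03). The 3 tested mast cell and basophil genes were all higher in KO (median 0.58), with Prss34, a basophil protease, at 2.09 ± 1.19 CPM in WT and 4.03 ± 1.28 in KO. Of 5 erythroid and megakaryocyte genes 4 were higher (median 0.28), and of 9 endothelial genes 7 (median 0.24). No gene of these lists was called with or without the block, and their part in the levels of the members was not tested.

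AGO2 PAR-CLIP gave a readout that did not choose the members. Cells took up 4-thiouridine, RNA crosslinked to AGO2 was precipitated with the antibody 2D4, and crosslinked uridines were read as C. The deposited tables list groups of overlapping reads, 66451 in WT and 85458 in KO, each with at least 5 reads. With 1 library per genotype no test was possible. Ccr2 and Ly6e were the only members with a listed group. Plac8, Ly6a, Ly6c2, S100a8 and S100a9 had none in either genotype. Among genes within 2-fold of the mRNA level of each of these 5 in WT, between 23.1% (Ly6c2) and 58.9% (Ly6a) had a group.

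Ccr2 carried 6 groups with 1130 reads in WT and 4 groups with 626 reads in KO, which was 180 and 97.1 for each 1000000 reads in groups. That was more than 99.3% of the 2968 genes of like mRNA level in WT and more than 98.5% of 3758 in KO, genes without a group included. The scaled reads were thus lower in KO while Ccr2 mRNA averaged higher there. The AGO2 libraries also differed as wholes: 22109 of 66451 groups lay in 3′ UTRs in WT and 17420 of 85458 in KO. Titles of the PAR-CLIP libraries hold no replicate number, and whether the lower reads are particular to Ccr2 was not tested. A single 3′ UTR group held 85.4% of the Ccr2 reads in WT and 93.3% in KO. It lay at chr9:124022755-124022787 in WT and chr9:124022755-124022780 in KO on the plus strand (mm9, as the tables give the positions). In WT it held 965 reads with 5 conversion locations and 896 conversion events, so events came to 92.8% of the read count. In KO it held 584 reads with 3 conversion locations and 508 events, or 87.0%. How events were counted in a read that spans several locations is not given in the sources used here. These values are therefore not shares of converted reads, and no interval is given. The reads carry no molecular identifiers.

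The strongest group is printed because it held most of the AGO2 reads of the only monocyte receptor in the set. Capitals mark TGCTGCTA, which pairs with bases 2 to 8 of the miR-15/16 family and holds the A opposite base 1. The WT stretch is 30 bases of its group.
Ccr2 3′ UTR, WT: tttatattatTGCTGCTAttttctgcctcc
Ccr2 3′ UTR, KO: ttttatattatTGCTGCTAttttctg
The family members with at least 100 CPM in the small RNA libraries share the seed in capitals (RefSeq sequences).
miR-16-5p: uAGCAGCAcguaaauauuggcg
miR-15a-5p: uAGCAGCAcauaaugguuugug
miR-322-5p: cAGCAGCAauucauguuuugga
miR-15b-5p: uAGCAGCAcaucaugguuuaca
Of 3′ UTR groups 2.11% in WT and 2.16% in KO hold TGCTGCT on the transcript strand. A match of letters is a description and not a shown site.

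miR-16-5p was the most abundant of these miRNAs, at 1679 and 2005 CPM in WT 1 and 2 and 2264 and 1944 CPM in KO 3 and 4. miR-15a-5p was 1612 and 1457 CPM in WT and 1521 and 1453 in KO. miR-322-5p followed at 372 and 349 CPM in WT and 468 and 315 in KO, and miR-15b-5p at 138 and 137 CPM in WT and 154 and 126 in KO. The WT and KO ranges of miR-16-5p, miR-322-5p and miR-15b-5p overlapped, and for miR-15a-5p they did as well. Genotype and number set coincide in these libraries and cannot be told apart.

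The other Ccr2 groups were weaker, and only 1 of them overlapped between the genotypes. That 3′ UTR group held 99 reads in WT and 14 in KO. The share of all groups that overlap was not worked out, so nothing is read from this count. A WT 3′ UTR group with 28 reads at chr9:124023153-124023175 held the letters AATGTGA, which pair with bases 2 to 8 of miR-23a-3p and occur in 1.23% of WT 3′ UTR groups. A WT 3′ UTR group with 12 reads at chr9:124022401-124022429 held TTTTTTT, the kind of uridine run that ELAVL1 is known to bind, which 2.04% of WT 3′ UTR groups also hold. A KO 5′ UTR group with 20 reads at chr9:124018506-124018526 held TGTAGCA, which pairs with bases 2 to 7 of miR-221-3p and miR-222-3p followed by an A. TGTAGCA occurs in 1.14% of WT and 1.23% of KO 3′ UTR groups, and its share of 5′ UTR groups was not worked out. These groups are printed with those letters in capitals, to show where each lies.
Ccr2 3′ UTR, WT, miR-23a-3p letters: aacttcaacttctaAATGTGAtg
Ccr2 3′ UTR, WT, uridine run (first 23 bases of the group): acaaTTTTTTTcaatatcacact
Ccr2 5′ UTR, KO, miR-221/222 letters: aacattcatcTGTAGCAcatg
The RefSeq miRNA sequences follow, with bases 2 to 8 in capitals. Base 8 of miR-221-3p and miR-222-3p is not part of the match above, which covers bases 2 to 7.
miR-23a-3p: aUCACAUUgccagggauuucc
miR-221-3p: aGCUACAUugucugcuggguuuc
miR-222-3p: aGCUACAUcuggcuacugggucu

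**Figure D4:**
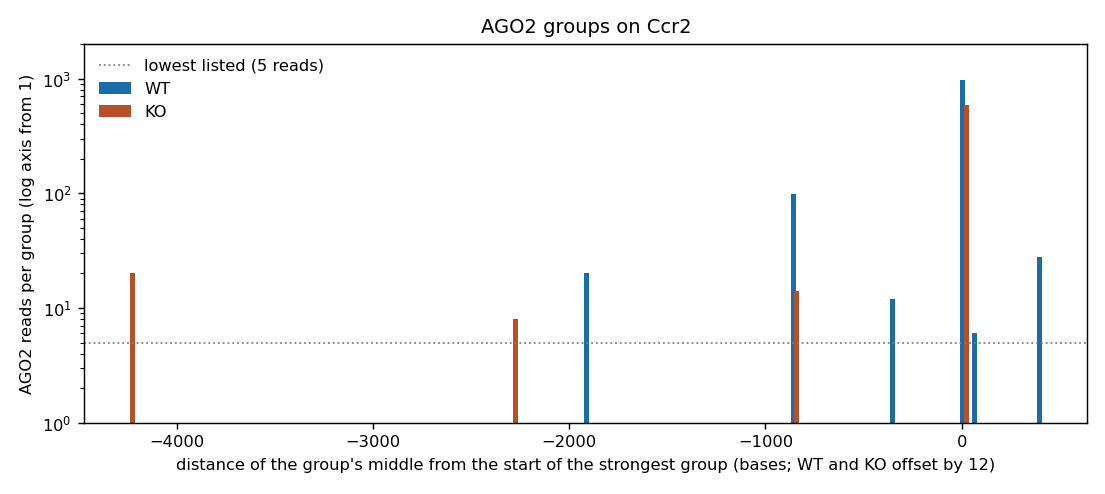
AGO2 reads of each listed group on Ccr2 (log axis from 1) against the distance in bases from the start of the strongest group, for 1 WT and 1 KO library; bars are offset by 12 bases so that both show, and the dotted line marks the lowest listed value of 5 reads. The tallest bars are the shared 3′ UTR group with 965 reads in WT and 584 in KO.

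Ly6e had few AGO2 reads for so abundant an mRNA. It held 2 groups with 20 reads in WT and 3 groups with 57 reads in KO, and none overlapped between the genotypes. Each group held between 7 and 22 reads, near the lowest listed value of 5. The share of all groups that overlap was not worked out, so nothing is read from the lack of overlap. Of genes within 2-fold of the Ly6e mRNA level, 18.1% in WT and 26.4% in KO had fewer reads. Among all genes of like level with a group, the medians were 242 reads in WT and 285 in KO. No Ly6e group held a 7mer match to the 97 miRNAs searched, which says only that those letters are not in these stretches.

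Promoter entries were found for Plac8, Ly6c2, S100a8, S100a9 and Ccr2 (RefSeq, GRCm38.p6). The letters TATAAA occurred in S100a8, starting 30 bases before the listed start, and in S100a9 at the listed start, against 14.2% of 27025 promoters of the same 300 bases. GAGGAA, the core that PU.1 and other ETS factors bind, occurred on either strand in Plac8, Ly6c2 and S100a8, against 28.3% of promoters. GAAANNGAA, the core of the interferon response element, occurred in Ccr2 on the strand opposite to the gene, 86 bases before the start, against 8.58% of promoters. TTCNNNGAA (STAT element) and TGANTCA (AP-1) were searched on both strands and occurred in none of the 5, against 8.42% and 7.92%. The 80 bases before the start are printed for Plac8, the member whose groups did not overlap, and for S100a8, the member that was lower in KO, with TATAAA and GAGGAA as read on the opposite strand in capitals.
Plac8, chr5:100572206-100572285, minus strand: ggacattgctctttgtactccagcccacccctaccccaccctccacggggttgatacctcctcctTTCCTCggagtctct
S100a8, chr3:90668991-90669070, plus strand: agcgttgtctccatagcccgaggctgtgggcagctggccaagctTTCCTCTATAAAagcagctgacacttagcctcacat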

How the data were processed

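Per the file headers, the mRNA files hold counts of reads and RPKM for Ensembl genes, the small RNA files hold counts for mature miRNAs, and the AGO2 files hold read and conversion counts for groups, all as deposited. The submitters' processing notes name CASAVA 1.8.2, Bowtie 0.12.7 and mm9. Not given in the sources used here are the counter, its strand setting, its handling of multiply mapping reads and the group program. Whether the group positions count the first base as 0 or 1 could not be settled. The RPKM values deposited by the authors were used only to order levels between genes. Fractions in the small RNA files were not used, and the fraction column of the KO 4 file is headed KO 2, so that library is taken as its sample label gives it.

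Symbols were found for 19328 of 21444 identifiers. edgeR 4.0.16 (R 4.3.3) tested the counts with filterByExpr, TMM scaling, quasi-likelihood F tests and Benjamini-Hochberg adjustment over the 14019 genes left, at an adjusted p under 0.05. The standard error of a log2 fold change is its size divided by the root of its F. Genotype was fitted over 4 WT and 4 KO libraries without a block, and the replicate numbers were compared with genotype in the fit. Deviations of same-numbered WT and KO libraries from their group means correlated at 0.77, 0.81, 0.745 and 0.801, so the numbers were taken to pair. WT 4 with KO 3 (0.832) and WT 3 with KO 4 (0.764) correlated as well, so for those the values show the set 3 and 4 and not the pairs. No 2 libraries of a group agreed within sampling noise. The fits were tested on simulated counts in which far fewer genes differed by number than in these data. That test therefore does not show how the fit without a block performs here.

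Groups were assigned by the deposited gene name, and 1 shared base on the same strand counted as overlap. Seeds came from miRNAs of at least 100 CPM on average (115, of which 97 had a RefSeq sequence). Promoters were searched from 250 bases before to 50 after the start. Tables were handled with pandas 2.3.3 and SciPy 1.17.1. Members and gene lists were chosen with earlier results of these data known. The rule for named genes took all members, the genes that check the labels, for each list the 2 genes of highest mean and the highest and lowest fold changes, and the 3 genes most like each member; of the list genes it took, only some are printed. Other names were chosen after their values were seen, and 1 gene that this rule names is not reported here. Alternatives were DESeq2 1.42.0, limma 3.58.1 voom (number test), RLE and upper quartile scaling, no filter, the replicate block, number sets alone, leaving out each library, and other limits on groups.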

Additional observations from a re-analysis of the deposited data

Results flagged for a closer look

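Of 14 member groups and 88 groups of the other named genes, 4 held a library whose gap to its nearest neighbour exceeded Dixon's 95% critical share of the range for 4 samples, where chance gives about 1 in 20. Ly6e in WT 2 was 1268 CPM against 435 to 557 in the other WT libraries, and KO 2 was as high. Hdc, a mast cell gene, was 0.632 CPM in KO 2 against 1.15 to 1.25. Col1a1, a fibroblast collagen, was 6.96 CPM in WT 4 against 0.979 to 1.31. Plvap, an endothelial gene, was 6.09 CPM in WT 1 against 0.47 to 1.01.

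Of 44 named list genes checked, 6 had a KO to WT difference of 1 sign in numbers 1 and 2 and the other in 3 and 4. How many would do so by random signs was not worked out, so nothing is read from this count. The difference between the number sets was not tested for these 6 genes. The mean log2 ratios in numbers 1 and 2 and in numbers 3 and 4 were 0.11 and -0.74 for Ccr3, 0.15 and -1.38 for Itgax and 0.28 and -0.41 for Lox. They were -1.15 and 2.60 for Col1a1, -1.40 and 1.57 for Tie1 and -1.15 and 1.95 for Plvap. No member showed such opposite signs. The members were chosen as genes rising in KO, which makes such a pattern less likely in advance, so nothing is read from this.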

How the results depend on the processing

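The count of members higher in KO was 6 under DESeq2, both other scalings, no filter, the replicate block, numbers 3 and 4 alone and without any 1 library, and 7 in numbers 1 and 2 alone, where S100a8 was at 0.16. Genes called between the genotypes numbered 0 with no block, 3 with DESeq2, 5 with the replicate block and 14 in numbers 3 and 4 alone, and stayed at 0 without any 1 library. Leaving out 1 library moved the log2 fold change between 1.51 and 2.06 for Plac8, 1.26 and 2.15 for Ly6a, 0.26 and 0.88 for Ly6e, 1.03 and 1.75 for Ly6c2, -0.59 and -0.01 for S100a8, 0.06 and 0.79 for S100a9 and 0.44 and 1.15 for Ccr2. Plac8 was 1.03 in numbers 1 and 2 alone and 2.34 in numbers 3 and 4 alone. Genes that differed among the numbers ran from 7492 to 9799, and members that did from 3 to 7, when 1 library was left out. With at least 2 conversion locations the member groups fell to 1 in WT and 1 in KO, which overlapped (1). The block changed no call of a member. The counting depth limits Ly6c2 most, at 3 reads in WT 1.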
